A study of Mus musculus with 8 samples.

Results

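The genes described here encode carriers of sugars, monocarboxylates, carboxylates, vitamins, organic ions, nucleosides, choline, fatty acids and nucleotide sugars. They were all genes of the deposited normalized count set whose symbol belongs to the solute carrier families Slc2, Slc5, Slc13, Slc16, Slc19, Slc22, Slc23, Slc27, Slc28, Slc29, Slc33, Slc35, Slc37, Slc44, Slc45, Slc46, Slc47 and Slc50 or to the organic anion transporter family Slco. This rule gave 99 of 16889 genes in 19 families, and it used no measured value other than presence in that set. Another 42 genes with such symbols had no more than 72 counts in total over all libraries and were not in the set. *Slc2a4rg-ps* and *Slc22a13b-ps*, which match the rule, are named as pseudogenes.

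Endothelial cells (ECs) were isolated from whole brains of P9 mouse pups on a C57BL/6J background with beads against the endothelial surface protein CD31, and poly(A) RNA was sequenced from 4 mutant and 4 wild-type pups, with 1 library per pup. Mutant pups were R26 GT-Map2k1-GFP/+; Tg-Cdh5CreER+/-. In these pups tamoxifen-activated Cre, driven by the endothelial *Cdh5* promoter, removes a stop cassette at the Rosa locus so that *Map2k1* cDNA carrying the K57N substitution and GFP are made. Controls were labelled Wild type and, by the study's methods, were picked from the same litters, and mutant and control pups alike received tamoxifen at P1. Recombination reached a minority of mutant ECs, so the counts of a mutant library average recombined and other cells. Mutant pups were also growth retarded. A title among the study's materials describes the controls as carrying Tg:Cdh5-CreER, and the labels do not settle whether they did.

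Brain ECs form the blood-brain barrier, and because tight junctions close the path between the cells, polar nutrients cross only through carriers. Glucose crosses by facilitated diffusion through GLUT1, lactate and ketone bodies are moved together with protons by the monocarboxylate transporters, thyroxine is carried by OATP1C1, and dedicated carriers bring in choline, folate, thiamine, biotin and nucleosides. Members of the Slco and Slc22 families also move organic anions and drugs, often from brain to blood. The Slc35 proteins act inside the cell, where they bring nucleotide sugars into the Golgi apparatus and endoplasmic reticulum for glycosylation.

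The libraries held 24833373 to 34196955 gene counts in the mutants and 28146348 to 32208421 in the wild type. Values are given as scaled counts, which are the deposited counts divided by library size with TMM factors and multiplied by the mean size. *Map2k1*, the gene that the transgene adds, had 12692 to 18734 scaled counts in mutant and 1506 to 1762 in wild-type libraries, so every library had the level that its label called for. The 10 endothelial marker genes summed to 363544 to 440462 scaled counts in mutant and 342045 to 414596 in wild-type libraries. Single genes within this sum moved in opposite directions. Of the 10, 3 were higher, *Cdh5* 2.15-fold, *Emcn* 1.77-fold and *Pecam1* 1.44-fold, and 3 were lower, *Kdr* 1.50-fold, *Cldn5* 1.38-fold and *Tek* 1.36-fold. Over all genes tested, 21.5% were higher and 22.9% lower at an adjusted p under 0.05 by edgeR, for comparison with the marker counts given here. Markers of other cells were present and moved with the groups in several cases. All 8 oligodendrocyte lineage markers and all 6 red blood cell markers were lower in mutants, with summed levels of 967 to 1930 against 3074 to 8532 and of 2648 to 8529 against 15883 to 27551. Neuronal markers summed to 1162 to 1690 against 1498 to 4027, with 4 of the 7 tested lower. Of the 7 microglial markers 0 were called, and of the 6 choroid plexus markers 2 were lower and 1 was higher (median log2 fold change -1.49). They summed to 2261 to 8798 and 3318 to 7235 in mutant and to 2702 to 11393 and 3198 to 18244 in wild-type libraries, and the libraries numbered 3 were the highest of their group for both lists. Pericyte sums overlapped, at 21478 to 34438 and 19175 to 34519, as did those of smooth muscle, at 1963 to 5470 and 2562 to 6260, of fibroblasts and meninges, at 27084 to 34373 and 20786 to 29850, and of ependyma, at 125 to 265 and 197 to 411. Single markers were called in these lists too. Of the 8 pericyte markers 2 were higher (*Kcnj8* and *Abcc9*) and 0 lower, and of the 4 of smooth muscle 1 was higher and 0 lower. Of the 6 of fibroblasts and meninges 2 were higher and 1 lower (*Pdgfra*), and of the 4 of ependyma 1 was higher and 1 lower. Astrocyte markers summed to 18473 to 22158 and 10903 to 12941, most of it from *Gja1*, a gap junction gene that ECs also express. Of these 6 markers *Gja1* alone was called higher (log2 fold change 0.80) and *Aldh1l1* alone lower (-0.96), and their median was -0.50. No gene of these lists was at 0 in every library. Their part in the results was not tested, and in bulk libraries fewer cells of a type and less RNA per cell cannot be told apart.

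The groups were set against each other by quasi-likelihood testing in edgeR over the 16887 genes that passed a filter on low counts, and a member was called when its p, adjusted by Benjamini-Hochberg, was under 0.05. Of the 96 members tested, 26 were lower in mutants, or 27.1% against 22.9% of all genes tested, and 20 were higher, or 20.8% against 21.5%. The study's added limit, a log2 fold change beyond 1 in either direction, left 16 members lower, or 16.7% against 8.05% of all genes, and 8 higher, or 8.33% against 5.90%. Of 19 members listed for their known place in brain endothelium, 10 were lower in mutants, where 22.9% of all genes tested were. *Slc16a1*, *Slco1c1* and *Slc22a8* were among them. Another 4 were higher (*Slc29a1*, *Slco2a1*, *Slco3a1* and *Slc35a2*), a share near the 21.5% of all genes tested. The other 5 did not pass, among them *Slc2a1*. *Slc35a2* was close to the limit (edgeR adjusted p = 0.0373), and its call was lost in some of the alternatives given below. The list of 19 was chosen with earlier results of these data known. The median log2 fold change was -0.14 over the members and -0.02 over all genes. Every mutant library lay below every wild-type library for 27 members, or 28.1% against 21.9% of all genes, and above for 17, or 17.7% against 20.6%. The calls and this separation differed for 4 members. *Slc2a9*, *Slc22a3* and *Slc35c1* were called although their groups overlapped, and *Slc29a2* was separated but not called. The other 50 members tested did not pass, and *Slc2a2*, *Slc22a6* and *Slc47a1* had too few counts to test.

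**Figure D1:**
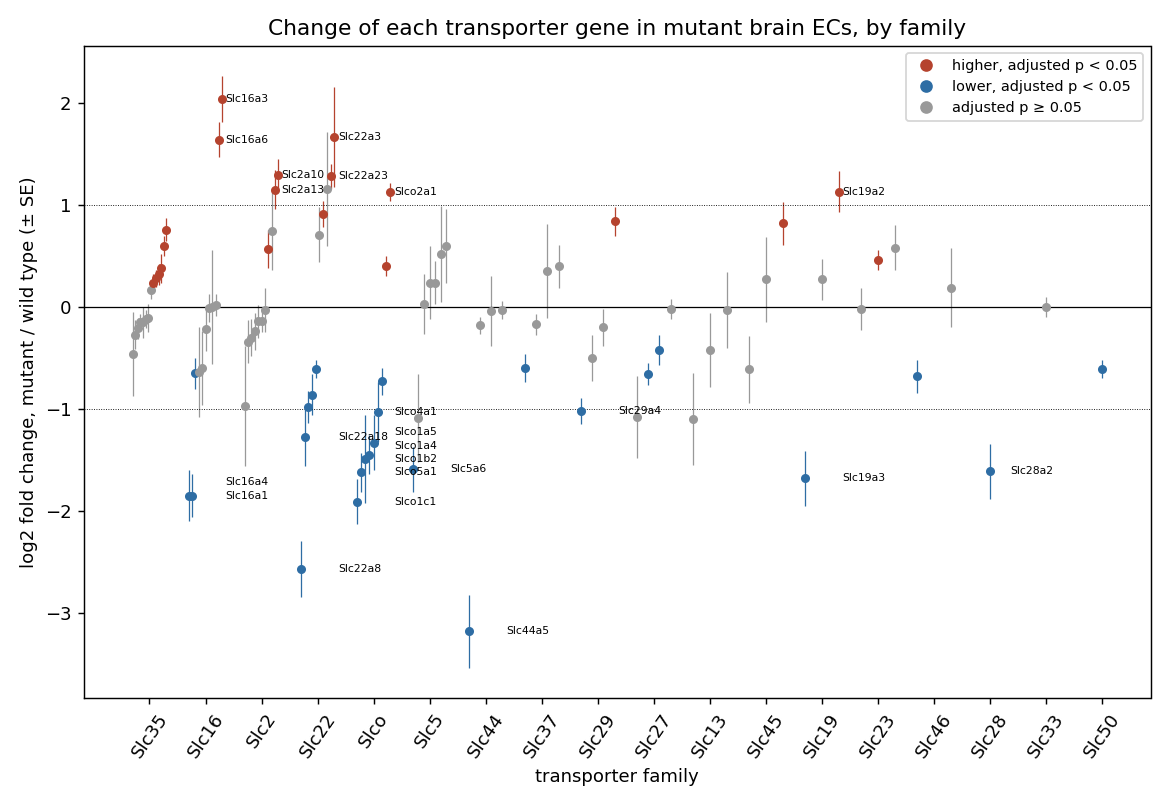
Log2 fold change of mutant over wild type (vertical axis, edgeR) for members that were tested, in columns by family, with 1 point per member, bars of ± 1 SE, dotted lines at 1 and -1, and colours for members higher, lower or not passing at an adjusted p of 0.05. Members past both limits are named to the right of their column, in the order of the values. Slco and Slc16 members reach from -1.91 to 1.13 and from -1.85 to 2.04, whereas the 14 Slc35 members stay between -0.46 and 0.76.

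By family, 7 of 9 Slco members, 5 of 10 tested Slc22 members and 4 of 12 Slc16 members were lower, against 22.9% of all genes tested. Those higher included 6 of 14 Slc35 members, 3 of 11 tested Slc2 members and 3 of 10 Slc22 members, against 21.5% of all genes tested, and the Slc16 and Slc2 shares were near these. None of the 3 Slc13 members and the only Slc33 member passed, and the only Slc47 member could not be tested. In Slco all 9 members passed the test, 7 lower and 2 higher. These counts were small within most families, with 1 to 14 members each.

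Promoter sequences were available from RefSeq (GRCm38.p6) for 80 of the 99 members. The 200 bases immediately before the RefSeq start are shown for members with large changes in either direction whose window lay outside the gene model, so that both groups of promoters can be read beside the values that follow. *Slc44a5*, *Slco1c1* and *Slc16a1* were lower in mutants, and *Slc22a23*, *Slc2a13* and *Slc19a2* were higher. Capitals mark matches, read on either strand, to the motifs searched, which in these windows were the GC box GGGCGG and the E-box CACGTG. The windows are chr3:153973236-153973435 (+), chr6:141524154-141524353 (+), chr3:104638464-104638663 (+), chr13:34345219-34345418 (-), chr15:91573262-91573461 (-) and chr1:164248846-164249045 (+), in the order of the lines, each written 5′ to 3′ on the strand of its gene.
Slc44a5: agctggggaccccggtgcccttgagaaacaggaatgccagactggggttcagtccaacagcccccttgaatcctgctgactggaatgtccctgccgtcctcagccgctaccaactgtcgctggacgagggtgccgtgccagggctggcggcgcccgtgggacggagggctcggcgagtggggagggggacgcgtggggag
Slco1c1: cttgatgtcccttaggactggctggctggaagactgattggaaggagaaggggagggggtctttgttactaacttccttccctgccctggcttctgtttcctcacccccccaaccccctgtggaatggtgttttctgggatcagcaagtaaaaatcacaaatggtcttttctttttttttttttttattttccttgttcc
Slc16a1: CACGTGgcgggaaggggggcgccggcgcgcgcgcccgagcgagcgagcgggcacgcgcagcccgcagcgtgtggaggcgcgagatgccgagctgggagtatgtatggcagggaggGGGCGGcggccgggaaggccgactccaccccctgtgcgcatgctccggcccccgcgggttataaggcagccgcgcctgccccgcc
Slc22a23: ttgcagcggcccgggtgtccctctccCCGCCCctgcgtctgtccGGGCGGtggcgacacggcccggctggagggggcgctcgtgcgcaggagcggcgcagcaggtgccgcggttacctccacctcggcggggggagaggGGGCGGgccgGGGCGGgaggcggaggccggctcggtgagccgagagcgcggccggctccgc
Slc2a13: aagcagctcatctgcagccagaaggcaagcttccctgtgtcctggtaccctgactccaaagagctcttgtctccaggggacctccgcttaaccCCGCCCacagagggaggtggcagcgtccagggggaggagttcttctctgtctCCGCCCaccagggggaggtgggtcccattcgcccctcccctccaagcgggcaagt
Slc19a2: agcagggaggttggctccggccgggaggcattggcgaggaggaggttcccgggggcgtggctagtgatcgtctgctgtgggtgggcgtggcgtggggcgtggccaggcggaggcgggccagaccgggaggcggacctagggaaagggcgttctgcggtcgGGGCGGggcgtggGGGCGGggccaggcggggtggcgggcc

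The *Slco1c1* window held no CpG dinucleotide and 46.0% G and C, whereas the *Slc16a1* window held 30 CpG and 77.5% G and C, and transcripts of both genes were lower in mutants. The *Slc44a5* window had 14 CpG and 68.0% G and C, with no match to any motif searched. Among the genes higher in mutants, the *Slc22a23* window had 4 GC boxes, 29 CpG and 80.5% G and C. The *Slc19a2* window had 2 GC boxes, 21 CpG and 76.5%, and that of *Slc2a13* had 2 GC boxes, 6 CpG and 63.5%. Over the 250 bases before the start, 6 of 7 members higher past both limits held a GC box (85.7%), 4 of 14 members lower past both limits (28.6%) and 23 of 38 members that did not pass the test (60.5%), against 45 of all 80 members (56.2%) and 35.4% of 27025 promoters of all genes. The median share of G and C was 63.2%, 52.8%, 60.6%, 59.9% and 52.4% in the same order. The TCF/LEF motif CTTTGA, which Wnt-responsive genes can carry, was in 4 of the 14 lower, 1 of the 7 higher and 5 of the 38 other members, and in 15.8% of all promoters. The AP-1 motif TGANTCA was in 1 of 14, 0 of 7 and 1 of 38 (7.82% of all promoters), the ETS motif CCGGAAG in 0, 0 and 2 (7.83%), the FOX motif TGTTTAC in 1, 0 and 0 (3.54%) and the E-box in 1, 0 and 6 (6.86%). None of these motifs contains another, and a match describes only the letters in the window.

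Among the sugar carriers, transcript of the main brain glucose transporter was not found to differ between the groups. *Slc2a1* (chr4:119108711-119137983, GRCm38, + strand), which encodes GLUT1, had 72138, 82085, 59696 and 60081 scaled counts in the mutants and 79297, 78026, 70058 and 74839 in the wild type. The groups overlapped, since mutant 2 had the highest value of all and mutants 3 and 4 the lowest. The log2 fold change was -0.14 (SE 0.11), with an adjusted p of 0.329 by edgeR's quasi-likelihood test. Reads of *Slc2a1* are far above those of genes that overlap it on the other strand (575212 against at most 5054 counts in total). *Slc2a3*, the high-affinity glucose transporter GLUT3 best known from neurons, had 321 ± 68.9 scaled counts in mutants and 404 ± 112 in wild type (SD, n = 4 each here and below), with a log2 fold change of -0.34 and an adjusted p of 0.219 by edgeR. With the number that opens each sample description as a block it passed (log2 fold change -0.32, edgeR adjusted p = 0.0433).

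Of the 11 tested Slc2 members, 3 less abundant ones were higher in mutants, a share near the 21.5% of all genes tested. The median log2 fold change of the family was -0.14. *Slc2a10* encodes GLUT10, a carrier of glucose and dehydroascorbate whose loss causes arterial tortuosity syndrome. It had 289, 180, 239 and 278 scaled counts in mutants and 97.7 to 103 in wild type, so the 4 wild-type values lay close together and far below the mutants. It rose 2.45-fold, a log2 fold change of 1.29 (SE 0.16, adjusted p = 1.63e-04 by edgeR). *Slc2a13*, the proton-coupled myo-inositol transporter HMIT, had 292, 216, 176 and 275 scaled counts in mutants and 90.3, 115, 97.7 and 131 in wild type. No value overlapped, and the log2 fold change was 1.15 (SE 0.19, adjusted p = 8.95e-04 by edgeR). The third Slc2 gene that rose was *Slc2a9*, a urate transporter, with 239 ± 57.7 against 161 ± 22.2 scaled counts (log2 fold change 0.57, edgeR adjusted p = 0.0291), and there the groups overlapped. The other 8 tested members of Slc2 did not pass. *Slc2a5*, the fructose transporter that marks microglia in brain, had 37.5 ± 26.4 and 73.3 ± 59.1 scaled counts, a spread as wide as that of the microglial markers.

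Among other sugar carriers, *Slc50a1*, a glucose carrier of the SWEET family, fell 1.53-fold, from 1362 ± 139 to 891 ± 74.9 scaled counts (log2 fold change -0.61, SE 0.09, edgeR adjusted p = 5.27e-04). *Slc45a4* rose 1.76-fold. Its scaled counts were 6235, 3730, 2673 and 4364 in mutants and 2544, 2429, 2038 and 2624 in wild type, with mutant 3 only just above the highest wild-type library (log2 fold change 0.82, SE 0.21, edgeR adjusted p = 0.00954). *Slc37a4*, the glucose-6-phosphate transporter of the endoplasmic reticulum, fell by 0.60 on the log2 scale (SE 0.14, edgeR adjusted p = 0.00669), and the other 3 Slc37 members did not pass. The most abundant of these per length, *Slc37a3*, had a log2 fold change of -0.17 and an adjusted p of 0.190. *Slc5a3*, the sodium-dependent myo-inositol transporter, had 2390 ± 709 and 2022 ± 488 scaled counts and did not pass (log2 fold change 0.24, edgeR adjusted p = 0.362). Its gene shares a strand and bases with *Mrps6* (5031 counts against 17745), so the division of reads between them is uncertain. The remaining Slc5 sugar and ion carriers, among them the renal glucose transporter gene *Slc5a2*, the iodide transporter gene *Slc5a5* and the choline transporter gene *Slc5a7*, averaged 8.33 to 64.5 scaled counts in mutants and 14.2 to 63.6 in wild type and did not pass. On the other strand *Slc5a2* overlaps *BC017158* (3609 counts in total against 207) and *Slc5a10* overlaps *Grap* (27291 against 126). The values of *Slc5a2* and *Slc5a10* are therefore uncertain.

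The monocarboxylate family Slc16 held large changes in both directions. *Slc16a1* (chr3:104638668-104658462, + strand) encodes MCT1, the lactate and ketone body transporter of brain ECs. It had 15487, 26791, 27180 and 11293 scaled counts in mutants and 76976, 78456, 62901 and 72157 in wild type. The highest mutant library stayed far below the lowest wild-type library, and mutants 1 and 4 were lower than mutants 2 and 3. *Slc16a1* fell 3.60-fold, a log2 fold change of -1.85 (SE 0.25, edgeR adjusted p = 2.61e-04). *Slc16a4*, an orphan monocarboxylate transporter, had 580, 973, 967 and 475 scaled counts in mutants and 2888, 2815, 2299 and 2766 in wild type. It also fell 3.60-fold with no overlap (log2 fold change -1.85, SE 0.21, edgeR adjusted p = 1.01e-04), and its mutant libraries had the same order of high and low pairs. *Slc16a9*, a carnitine carrier, fell by 0.65 on the log2 scale (SE 0.15, edgeR adjusted p = 0.00555).

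*Slc16a3* (chr11:120948480-120960868) encodes MCT4, the lactate exporter of glycolytic cells. It had 1261, 718, 754 and 721 scaled counts in mutants and 171, 195, 291 and 181 in wild type. All mutant libraries were above the wild type, with mutant 1 far above the other mutants. It rose 4.10-fold, a log2 fold change of 2.04 (SE 0.23, edgeR adjusted p = 8.20e-05), and this was the largest log2 fold change upward among the 96 members tested. *Slc16a6*, which encodes MCT7 and is known as a ketone body exporter in liver, had 6138, 5124, 4373 and 5458 scaled counts in mutants and 1296, 1396, 1931 and 2129 in wild type. It rose 3.12-fold with the lowest mutant above the highest wild-type library (log2 fold change 1.64, SE 0.17, edgeR adjusted p = 4.33e-05). *Amz2*, which overlaps *Slc16a6* on the other strand, had 4918 counts in total against 26844 and a log2 fold change of -0.04. The remaining 6 Slc16 members did not pass. Of these, *Slc16a11* (log2 fold change -0.01) and *Slc16a13* (0.02) were abundant, with 3382 ± 706 against 3409 ± 358 and 4133 ± 506 against 4063 ± 484 scaled counts.

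Transcripts of the lactate carriers changed in proportion as well as in amount. Per kb of gene length, the ratio of *Slc16a1* to *Slc16a3* transcript was 14.8, 44.9, 43.3 and 18.8 in mutants and 540, 485, 259 and 478 in wild type. *Slc16a1* stayed the more abundant transcript of the pair in every library. *Slc16a1* made up 45.5% ± 8.74 of the Slc16 level per length in mutants and 74.6% ± 1.49 in wild type, *Slc16a6* 11.8% ± 3.95 and 1.60% ± 0.490, and *Slc16a3* 1.77% ± 0.764 and 0.183% ± 0.0648. *Bsg* (basigin), the chaperone that brings MCT1 to the cell surface, had 33261, 53157, 63399 and 32864 scaled counts in mutants and 176397, 175277, 128925 and 162471 in wild type. Like *Slc16a1* it was lowest in mutants 1 and 4, with no overlap, and it fell 3.52-fold (log2 fold change -1.82, SE 0.22, edgeR adjusted p = 1.18e-04). *Emb* (embigin), the alternative chaperone, had 85.5 ± 18.2 and 109 ± 45.5 scaled counts and did not pass (edgeR adjusted p = 0.349). Of 8 listed partners of lactate and glucose transport, 2 were higher and 4 lower, where 21.5% and 22.9% of all genes tested were. *Ldha*, the lactate dehydrogenase subunit of glycolytic cells, rose 1.50-fold (edgeR adjusted p = 1.91e-04), and the hexokinase gene *Hk1* rose 1.47-fold (7.36e-04). *Ldhb* fell 1.72-fold (0.00881), *Txnip* 1.41-fold (0.0102) and *Arrdc4* 1.43-fold (0.0435). *Txnip* and *Arrdc4* encode arrestins that take glucose transporters off the surface.

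**Figure D2:**
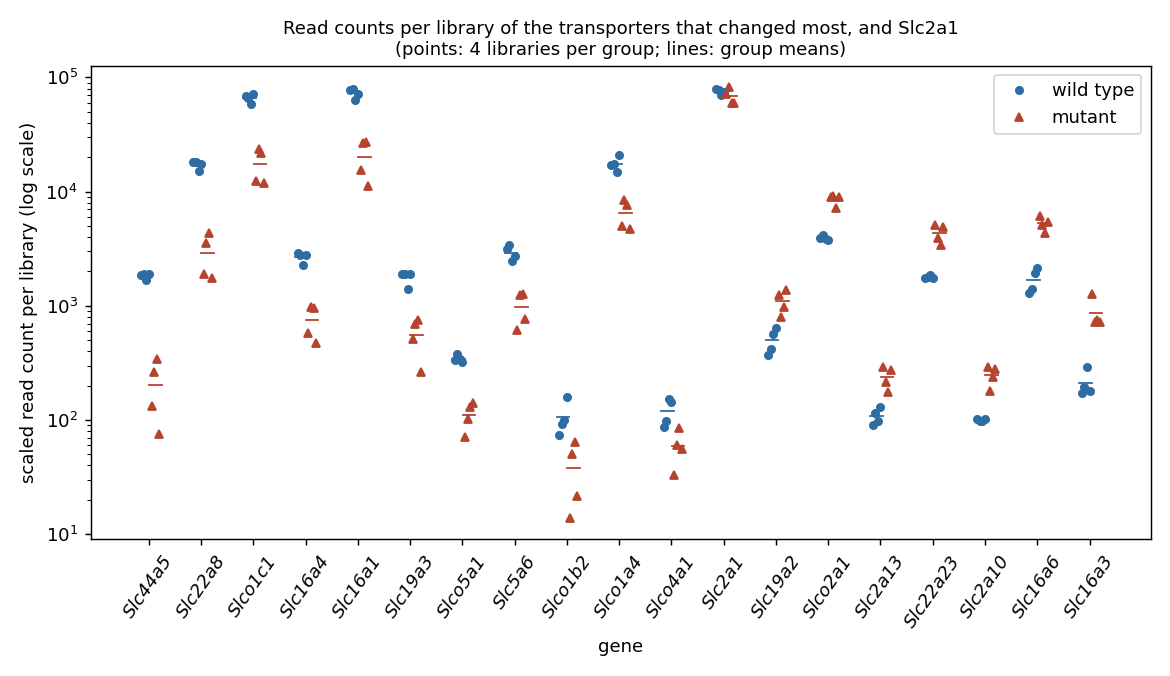
Scaled counts (vertical axis, log scale) in each library for the largest falls and 7 largest rises among members past both limits with a mean of at least 100 scaled counts in the higher group, and for Slc2a1, with triangles for mutant libraries, circles for wild-type libraries and a line at each group mean. For Slc44a5, Slc22a8, Slco1c1 and Slc16a1 every mutant point lies below every wild-type point, for Slc16a3, Slc16a6 and Slco2a1 every mutant point lies above, and for Slc2a1 the points overlap.

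Thyroxine and organic anion carriers of the Slco family were mostly lower in mutants. *Slco1c1* (chr6:141524368-141570177, + strand), whose promoter is shown above, encodes OATP1C1, the thyroxine transporter of brain capillaries. It had 12484, 23536, 21999 and 11920 scaled counts in mutants and 68199, 66063, 58275 and 71084 in wild type. Every mutant library held less than the lowest wild-type library, and mutants 1 and 4 again held the least. The fall was 3.77-fold (log2 fold change -1.91, SE 0.22, edgeR adjusted p = 9.26e-05). Of 6 listed genes of thyroid hormone handling, 4 could be tested. The receptor gene *Thra* alone passed, falling 1.70-fold (edgeR adjusted p = 0.00109), where 22.9% of all genes tested were lower. The deiodinase gene *Dio2*, the receptor gene *Thrb* and the carrier gene *Ttr* had adjusted p of 0.913, 0.239 and 0.0611 by edgeR.

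The remaining Slco members fell in all but a pair of cases. *Slco1a4* (chr6:141805440-141856199, - strand), a broad organic anion transporter of the mouse barrier, had 5010, 8467, 7568 and 4751 scaled counts in mutants and 16984, 17361, 14874 and 21043 in wild type. It fell 2.72-fold with no overlap (log2 fold change -1.45, SE 0.19, edgeR adjusted p = 2.07e-04). Its close relative *Slco1a5* had 17.2 ± 4.92 and 43.4 ± 6.92 scaled counts and a log2 fold change of -1.33. These genes lie in a cluster of similar sequences on chromosome 6, and the sources used here do not give how reads that map to several places were counted, so the smaller value is uncertain. *Slco1b2*, known from liver, had 13.9, 50.9, 64.3 and 21.8 against 73.7, 92.1, 100 and 158 scaled counts (log2 fold change -1.49, SE 0.43, edgeR adjusted p = 0.0167), with mutant 3 close to the lowest wild-type library. *Slco5a1*, an orphan member, had 70.9, 102, 131 and 141 against 333, 381, 342 and 321 scaled counts. It fell 3.08-fold with no overlap (log2 fold change -1.62, SE 0.19, edgeR adjusted p = 1.22e-04). *Slco4a1* had 32.9, 60.8, 85.3 and 55.7 against 86.6, 97.7, 154 and 143, so that mutant 3 almost reached wild type 1 (log2 fold change -1.03, SE 0.29, edgeR adjusted p = 0.0154). *Slco2b1*, a carrier of sulphated steroids, fell 1.66-fold (log2 fold change -0.73, SE 0.13, edgeR adjusted p = 0.00119).

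*Slco2a1* (chr9:102988712-103096002), the prostaglandin transporter, went the other way. It had 9063, 9096, 7191 and 9022 scaled counts in mutants and 3911, 4148, 3880 and 3778 in wild type. All mutants were well above the wild type, and mutant 3 stood below the other mutants. It rose 2.19-fold (log2 fold change 1.13, SE 0.09, edgeR adjusted p = 9.51e-06), which was the lowest adjusted p among the 96 members tested. *Slco3a1*, another carrier of prostaglandins, rose 1.32-fold (log2 fold change 0.40, SE 0.10, edgeR adjusted p = 0.00705). The ratio of *Slco1c1* to *Slco2a1* per length was 43.9 ± 4.37 in wild type and 5.45 ± 2.28 in mutants.

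In the Slc22 family of organic ion carriers, the largest fall was that of *Slc22a8* (chr19:8591254-8611834, + strand). It encodes OAT3, which exports organic acids such as neurotransmitter metabolites from brain. It had 1906, 3586, 4322 and 1758 scaled counts in mutants and 18005, 18354, 15211 and 17308 in wild type. No mutant library came near the wild type, and mutants 1 and 4 were the lowest. It fell 5.95-fold (log2 fold change -2.57, SE 0.27, edgeR adjusted p = 5.53e-05). Choroid plexus epithelium also makes *Slc22a8*. Its 6 listed markers, 2 of them lower and 1 higher, summed to 4238, 3318, 7235 and 3669 scaled counts in mutants and 5651, 6588, 18244 and 3198 in wild type, so the groups overlapped, and their part in the fall was not tested. *Slc22a5*, the carnitine transporter OCTN2, fell by 0.61 on the log2 scale (SE 0.09, edgeR adjusted p = 3.32e-04), and its relative *Slc22a21* by 0.98 (SE 0.16, 7.07e-04). *Slc22a17* and *Slc22a18* had log2 fold changes of -0.86 and -1.28, the latter from 59.2 ± 8.44 to 24.5 ± 8.73 scaled counts.

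*Slc22a23*, an orphan member whose promoter window above held 4 GC boxes, had 5063, 3944, 3404 and 4925 scaled counts in mutants and 1740, 1790, 1865 and 1737 in wild type. The wild-type libraries were nearly level and all mutants were higher. It rose 2.43-fold (log2 fold change 1.28, SE 0.12, edgeR adjusted p = 2.76e-05). *Slc22a15* rose by 0.91 on the log2 scale (SE 0.13, edgeR adjusted p = 2.76e-04). *Slc22a3*, the cation transporter OCT3, passed the test at few counts, with 27.7 ± 14.8 and 8.55 ± 4.65 scaled counts and overlapping groups (log2 fold change 1.67, edgeR adjusted p = 0.0182). Within the family, *Slc22a8* made up 78.8% ± 2.65 of the level per length in wild type and 25.9% to 49.1% in mutants, and *Slc22a23* 4.46% ± 0.371 and 31.2% ± 8.96. *Slc47a1*, an exporter of organic cations, had at most 7.74 scaled counts in any mutant and at most 51.9 in any wild-type library and could not be tested.

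The thiamine carriers moved in opposite directions. *Slc19a3* (chr1:83012523-83038448, - strand) encodes ThTr-2, a high-affinity thiamine transporter. It had 510, 694, 759 and 265 scaled counts in mutants and 1904, 1905, 1395 and 1900 in wild type, without overlap and with wild type 3 well under the other 3 libraries of its group. It fell 3.20-fold (log2 fold change -1.68, SE 0.27, edgeR adjusted p = 6.61e-04). *Slc19a2*, which encodes the thiamine transporter ThTr-1, had 1246, 793, 970 and 1372 scaled counts in mutants and 374, 421, 565 and 642 in wild type. All mutants were higher, and the rise was 2.19-fold (log2 fold change 1.13, SE 0.20, edgeR adjusted p = 0.00138). Per length, the ratio of *Slc19a3* to *Slc19a2* was 6.38, 5.67, 3.09 and 3.71 in wild type and 0.513, 1.10, 0.980 and 0.242 in mutants.

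Carriers of other vitamins differed in direction. *Slc5a6* (chr5:31036036-31048924, - strand) encodes the sodium-dependent carrier of biotin and pantothenate. It had 619, 1243, 1257 and 770 scaled counts in mutants and 3145, 3395, 2459 and 2724 in wild type, with no overlap. It fell 3.01-fold (log2 fold change -1.59, SE 0.22, edgeR adjusted p = 2.42e-04). It overlaps *Atraid* on the other strand (8292 counts in total against 16085), and *Atraid* fell by 0.34 on the log2 scale. *Slc23a2*, the vitamin C transporter SVCT2, rose 1.37-fold, from 4951 ± 660 to 6787 ± 561 scaled counts (log2 fold change 0.46, SE 0.10, edgeR adjusted p = 0.00475). The folate carriers did not pass the test. *Slc19a1*, the reduced folate carrier, had 537 ± 106 and 445 ± 112 scaled counts (log2 fold change 0.27, edgeR adjusted p = 0.294), and it overlaps *Col18a1* on the other strand, which had 292271 counts in total against 3920 and rose by 1.50 on the log2 scale, so its value is uncertain. *Slc46a1*, the proton-coupled folate transporter, had 34.0 ± 10.4 and 29.6 ± 15.9 scaled counts (edgeR adjusted p = 0.714). Of 5 listed genes of folate and thiamine handling, 3 were lower (22.9% of all genes tested) and 0 higher, among them *Folr1*, a folate receptor of choroid plexus (edgeR adjusted p = 0.0380). *Slc46a3*, a carrier of the lysosome, fell 1.60-fold (log2 fold change -0.68, SE 0.16, edgeR adjusted p = 0.00500).

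Nucleoside carriers were split as well. *Slc29a1*, the equilibrative nucleoside transporter ENT1 that takes up adenosine, had 9263, 7135, 5847 and 6306 scaled counts in mutants and 4289, 4402, 3803 and 3404 in wild type. All mutants were above the wild type, and the rise was 1.80-fold (log2 fold change 0.84, SE 0.14, edgeR adjusted p = 8.96e-04). *Slc29a4*, which encodes the monoamine carrier PMAT, had 499, 703, 637 and 480 scaled counts in mutants and 1250, 1275, 1024 and 1168 in wild type and fell by 1.02 on the log2 scale (SE 0.13, edgeR adjusted p = 1.85e-04). *Slc28a2*, the concentrative purine nucleoside carrier CNT2, was scarce, with 11.4, 18.8, 27.7 and 23.5 against 63.6, 56.4, 72.6 and 59.1 scaled counts. Its groups were nevertheless apart (log2 fold change -1.61, SE 0.27, edgeR adjusted p = 8.48e-04). The ratio of *Slc29a1* to *Slc29a4* per length was 2.41 ± 0.240 in wild type and 9.11 ± 3.02 in mutants. Of 6 listed genes of nucleoside handling, 1 was higher and 1 lower, where 21.5% and 22.9% of all genes tested were. *Nt5e*, the surface enzyme that makes adenosine from AMP, rose 5.95-fold, with 566, 394, 278 and 423 against 37.8, 53.6, 98.6 and 88.6 scaled counts (log2 fold change 2.57, SE 0.31, edgeR adjusted p = 1.22e-04). *Entpd1*, which makes AMP from ATP and ADP, fell 1.22-fold (edgeR adjusted p = 0.0129), and the other 4 did not pass.

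*Slc44a5* (chr3:153973436-154271722, + strand), a member of the choline transporter-like family, had the largest fall of the 96 members tested. It had 133, 263, 345 and 75.7 scaled counts in mutants and 1860, 1902, 1699 and 1903 in wild type. The wild-type libraries were close together and the highest mutant library was far below them. It fell 9.06-fold (log2 fold change -3.18, SE 0.36, edgeR adjusted p = 9.22e-05). The summed oligodendrocyte markers, which were also lower in mutants, had 967, 1930, 1036 and 1273 scaled counts in mutants and 8532, 6048, 7763 and 3074 in wild type, in the order of the libraries, and their part in the fall was not tested. *Slc44a1*, the most abundant of the family per length, had 3411 ± 356 and 3479 ± 286 scaled counts and did not pass (edgeR adjusted p = 0.821), nor did *Slc44a2* and *Slc44a3*. Of the fatty acid transport proteins, *Slc27a1* fell from 660 ± 64.2 to 417 ± 50.9 scaled counts (log2 fold change -0.66, SE 0.11, edgeR adjusted p = 9.77e-04) and *Slc27a3* fell by 0.42 on the log2 scale (edgeR adjusted p = 0.0381), whereas *Slc27a4* had 856 ± 107 and 866 ± 51.6 and did not pass. Among 11 listed genes of choline and fatty acid handling, 2 were higher and 5 lower, against 21.5% and 22.9% of all genes tested. *Mfsd2a*, which carries lysophosphatidylcholine lipids across the barrier, fell 5.06-fold, with 2734, 5246, 5574 and 2138 against 21440, 20888, 17390 and 19711 scaled counts (edgeR adjusted p = 1.19e-04). *Flvcr2*, a choline carrier of the barrier, fell 2.71-fold (5.29e-05). The acyl-CoA synthetase genes moved apart, since *Acsl4* rose 3.29-fold (1.03e-06) while *Acsl1* and *Acsl3* fell 1.85-fold and 1.45-fold.

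Among the nucleotide sugar carriers of the Slc35 family, the changes that passed the test were small and upward. Of 14 members, 6 were higher and 0 lower, against 21.5% and 22.9% of all genes tested, and 8 did not pass. The log2 fold changes of the family ran from -0.46 to 0.76, with a median of 0.03. No member passed the limit of 1 on the log2 scale. The largest change was that of *Slc35b3*, a carrier of the sulphate donor PAPS, from 835 ± 92.5 to 1418 ± 163 scaled counts (log2 fold change 0.76, SE 0.11, edgeR adjusted p = 2.73e-04). *Slc35d1*, which carries UDP-glucuronic acid and UDP-N-acetylgalactosamine, rose from 866 ± 102 to 1314 ± 92.7 scaled counts (0.60, SE 0.10, 6.93e-04). *Slc35c1*, *Slc35c2*, *Slc35b4* and *Slc35a2* had log2 fold changes of 0.38, 0.32, 0.28 and 0.24, with adjusted p of 0.0409, 0.0305, 0.0179 and 0.0373 by edgeR. The call of *Slc35a2*, the UDP-galactose carrier, was lost when any of 4 libraries was left out, namely mutant 2, mutant 4, wild type 3 or wild type 4 (adjusted p = 0.0745, 0.0512, 0.0950 and 0.0921 by edgeR). *Slc35a4*, the most abundant per length, had 2120 ± 80.3 and 1887 ± 222 scaled counts and did not pass (0.141), but did with that opening number as a block (log2 fold change 0.17, edgeR adjusted p = 0.0407), and it overlaps *Sra1* on the other strand. Of 7 listed genes that make nucleotide sugars, 4 were higher and 1 lower, against 21.5% and 22.9% of all genes tested. *Gfpt1*, which opens the hexosamine pathway, rose 2.27-fold (edgeR adjusted p = 4.31e-05), *Cmas* 1.92-fold (2.11e-04) and *Gmds* 1.38-fold (0.00136), while *Gne* fell 1.38-fold (0.00150). *Slc33a1*, the acetyl-CoA carrier of the endoplasmic reticulum, had 351 scaled counts in both groups (SD 14.0 and 24.1).

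Several scarce members with known roles in other tissues did not pass the test either. *Slc13a3* and *Slc13a5*, carriers of dicarboxylates and citrate, had 32.5 ± 12.3 and 19.6 ± 9.53 scaled counts in mutants and 33.1 ± 12.4 and 26.1 ± 5.19 in wild type. *Slc16a7*, the pyruvate carrier MCT2 of neurons, had 27.1 ± 4.70 and 41.2 ± 19.0. *Slc2a4*, the insulin-regulated glucose transporter GLUT4 of muscle and fat, had 31.6 ± 4.54 and 32.2 ± 3.32. *Slc23a1*, the epithelial vitamin C carrier, had 113 ± 26.3 and 75.6 ± 15.6 (log2 fold change 0.58, edgeR adjusted p = 0.0531) and overlaps the far more abundant Paip2 on the other strand. *Slc27a6*, a fatty acid transport protein of heart, had 14.7 ± 9.47 and 31.2 ± 8.27 (log2 fold change -1.08, edgeR adjusted p = 0.0506). *Slc29a2*, the nucleoside carrier ENT2, had 22.8, 39.8, 38.8 and 37.4 scaled counts in mutants and 51.6, 46.1, 53.6 and 45.3 in wild type, with no overlap (log2 fold change -0.50, edgeR adjusted p = 0.0998).

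**Figure D3:**
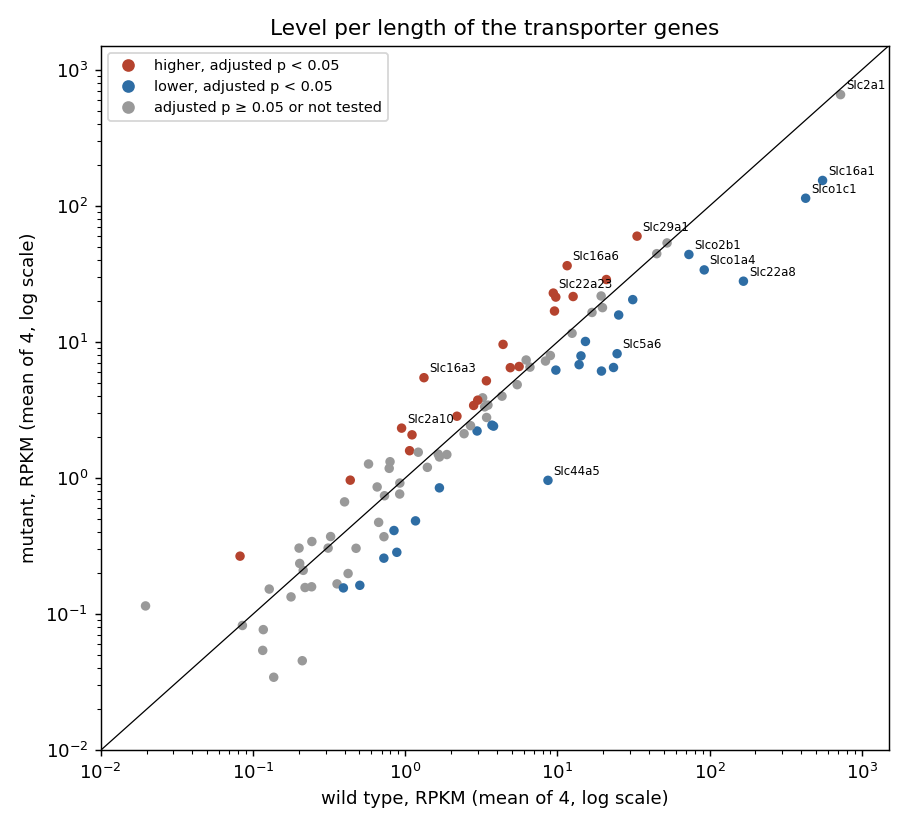
Level per length of members (RPKM, log axes), with the mean of 4 wild-type libraries on the horizontal axis, the mean of 4 mutant libraries on the vertical axis, a line of equality and colours by the edgeR test. Slc2a1, Slc16a1 and Slco1c1 are the 3 most abundant members in both groups, and Slc16a1, Slco1c1, Slc22a8 and Slco1a4 lie below the line.

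Levels of different genes were compared per length, as RPKM computed here from the deposited counts, the TMM-scaled library sizes and the gene lengths of the count files. *Slc2a1* was the most abundant member in both groups, at 658 ± 103 in mutants and 726 ± 39.6 in wild type. *Slc16a1* was next, at 154 ± 61.2 and 553 ± 53.4, followed by *Slco1c1*, at 114 ± 39.9 and 428 ± 35.6. The mutant levels of the last 2 overlapped between libraries, but within each mutant library *Slc16a1* was the higher of the pair. The ratio of *Slc2a1* to *Slc16a1* was 5.88, 3.87, 2.77 and 6.72 in mutants 1 to 4, and that of *Slc2a1* to *Slco1c1* was 8.55, 5.16, 4.01 and 7.46. Below them the order changed. *Slc22a8* was in place 4 in wild type (167 ± 13.6) and in place 11 in mutants (28.0 ± 12.2), and *Slco1a4* was in place 5 (92.3 ± 13.5) and 9 (33.9 ± 9.72). In mutants place 4 was held by *Slc29a1* (60.0 ± 12.7), which was in place 10 in wild type (33.4 ± 3.87), with *Slc16a13* (53.5 ± 6.55) within its spread. Summed over all members, the level per length was 1648 ± 202 in mutants and 2667 ± 168 in wild type, and *Slc2a1* made up 39.9% ± 3.72 and 27.2% ± 0.443 of it. The family sums were 327 ± 74.7 and 741 ± 61.9 for Slc16, 220 ± 52.6 and 611 ± 50.1 for Slco and 75.2 ± 8.73 and 211 ± 11.5 for Slc22. For Slc2 they were 672 ± 102 and 739 ± 38.7, within the spread, and for Slc29 the mutant sum was the higher, at 69.4 ± 11.8 and 50.4 ± 4.74. A level of at least 10 was reached by 23 members in mutants and 25 in wild type.

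**Figure D4:**
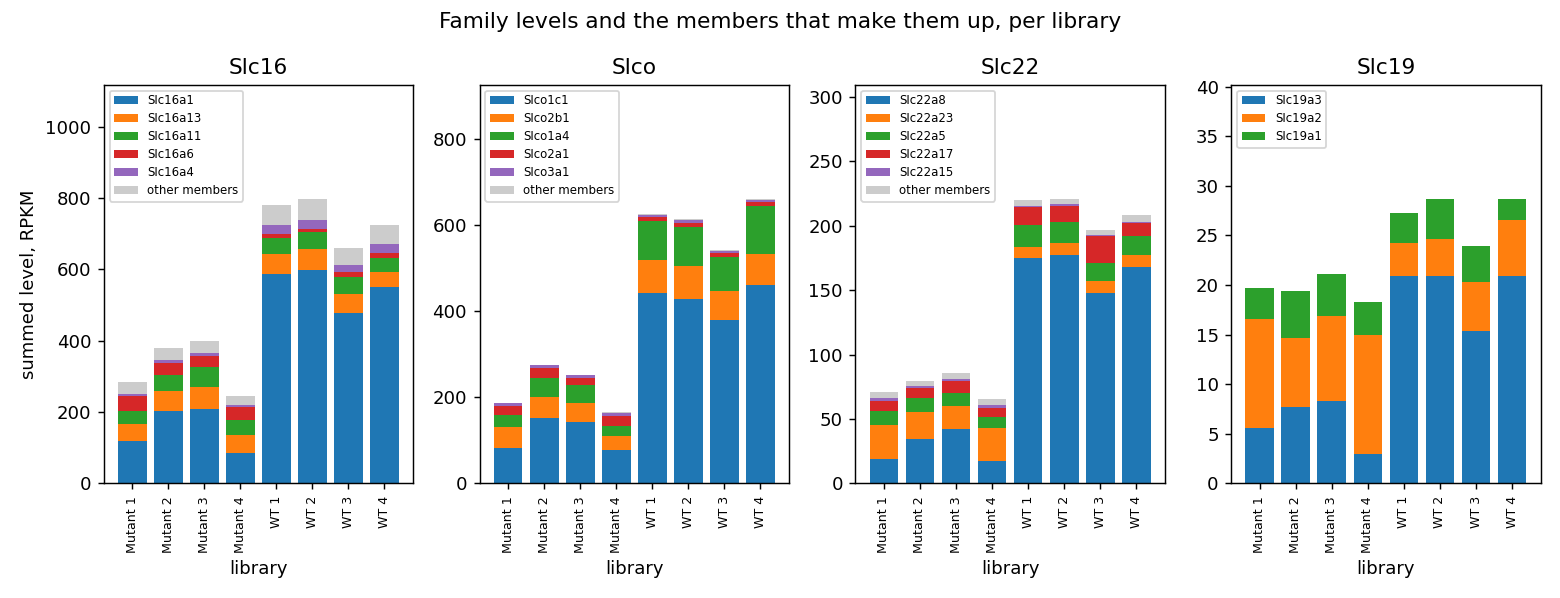
Summed level per length (RPKM, linear axis from 0) of the Slc16, Slco, Slc22 and Slc19 families in each library, with bars divided by member. The blue segments, which are Slc16a1, Slco1c1, Slc22a8 and Slc19a3, take 45.5%, 50.5%, 36.3% and 30.8% of the mutant sums on average and 74.6%, 70.1%, 78.8% and 71.6% of the wild-type sums.

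The mutant libraries differed among themselves in a repeated order. As a percentage of the wild-type mean, *Slc22a8* stood at 11.1%, 20.8%, 25.1% and 10.2% in mutants 1 to 4, *Slc44a5* at 7.22%, 14.3%, 18.7% and 4.11%, and *Slc16a1* at 21.3%, 36.9%, 37.4% and 15.6%. In 11 of the 12 largest falls of members with a mean of at least 100 scaled counts, mutants 1 and 4 were both below mutants 2 and 3, and *Slco5a1* was the exception. The same order held for 441 of 685 genes (64.4%) that were lower past both limits at that level over all genes. The lowest library was mutant 4 in 8 of the 12 and mutant 1 in the other 4. Among the 7 rises of that size the highest library was mutant 1 in 5, mutant 2 in 1 and mutant 4 in 1. *Map2k1* itself had 18734, 12692, 12707 and 14342 scaled counts in mutants 1 to 4, so mutants 1 and 4 also held the most *Map2k1*, and whether these orders are related was not tested.

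**Figure D5:**
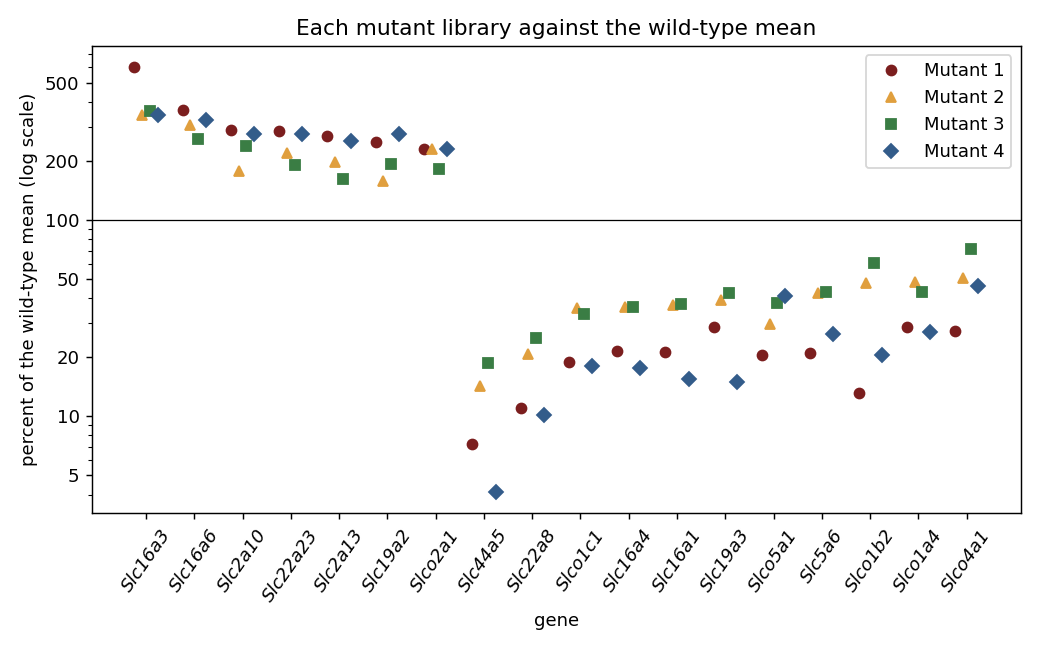
Scaled count of the 7 largest rises and of the largest falls, among members past both limits with a mean of at least 100 scaled counts in the higher group, in each mutant library, as a percentage of the wild-type mean (vertical axis, log scale), with 1 symbol per library and a line at 100%. Mutants 1 and 4 lie below mutants 2 and 3 in every fall shown except Slco5a1, and reach 7.22% and 4.11% for Slc44a5.

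The sample descriptions begin with 1 of 3 numbers whose meaning is not given. A number is shared by the libraries numbered 1 and 2, the others belong to those numbered 3 and 4, and each takes in both genotypes. The large falls and rises had been separated over all libraries, so their direction within each number was fixed by that separation. Their size varied, with log2 ratios of the falls from -3.24 to -0.96 for the libraries numbered 1 and 2, from -2.30 to -0.63 for those numbered 3 and from -4.63 to -1.18 for those numbered 4. Ratios of the rises were 1.17 to 2.43, 0.78 to 1.37 and 1.07 to 1.98. Each ratio for the libraries numbered 3 and 4 rests on a single pair.

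Since the libraries numbered 3 held the most microglial and choroid plexus transcript, the comparison was repeated without both, a choice made after these values were seen. It then gave 17 members higher and 27 lower, and 8 and 19 past both limits. *Slc13a4*, a sulphate carrier of choroid plexus and meninges, had 100 scaled counts in wild type 3 against 28.5 to 33.8 in the other wild-type libraries, and it did not pass the test over all libraries (log2 fold change -1.10, SE 0.45, edgeR adjusted p = 0.0729), though it did with the opening number of the descriptions as a block (log2 fold change -0.95, edgeR adjusted p = 0.0318).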

How the data were processed

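ECs from 4 mutant and 4 wild-type P9 brains gave 1 poly(A) RNA library each. The authors trimmed reads with Trimmomatic, aligned them with STAR to GRCm38 and deposited whole-number counts per gene without normalization. The counting program, annotation release, use of strand and handling of multi-mapped reads are not given in the sources used here. The authors also deposited a normalized signal for 16889 genes, each a count divided by a DESeq2 size factor (100.0% whole reads recovered, tolerance 0.01), which was used here only to choose members. Of 49315 gene identifiers, 48970 matched a symbol in GENCODE vM21. Positions and lengths are those of the count files.

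The groups were compared in edgeR 4.0.16 under R 4.3.3 (TMM, filterByExpr with a minimum count of 10, glmQLFit, glmQLFTest, no covariate). A gene was called at a Benjamini-Hochberg adjusted p under 0.05, with an absolute log2 fold change over 1 as a further limit. SEs are the log2 fold change divided by the square root of the test statistic. Each library is 1 pup, so p-values measure the spread between pups. At 24833373 to 34196955 counts per library that spread, and not counting error, limits the precision of all but scarce members. Libraries of a group differed by more than sampling noise (chi-square per degree of freedom 7.29 to 41.8), so each was kept as a replicate. 

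The members and gene lists were chosen with earlier results of these data known. Members named were those past both limits with a mean of at least 100 scaled counts in the higher group (up to 12 in each direction), the most abundant of each family per length, and 19 known from brain endothelium. Members named otherwise were chosen after their values were seen. Alternatives were DESeq2 1.42.0, other scalings, filters and thresholds, blocks, and libraries left out. Promoters were taken from RefSeq (GRCm38.p6). Protein sequences were not used here. Some genes that enter the counts are not reported here by name.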

Additional observations from a re-analysis of the deposited data

Results flagged for a closer look

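In groups of 4 libraries, a highest or lowest value was picked out when its gap to the nearest other value took more of the range of the group than Dixon's 95% limit allows. Of 80 groups checked for the 40 members named by rule, 4 met it, and chance gives about 1 in 20. *Slc16a3* had 1261 scaled counts in mutant 1 against 718 to 754 in the other mutants. *Slco2a1* had 7191 in mutant 3 against 9022 to 9096 in the other mutants. *Slc19a3* had 1395 in wild type 3 against 1900 to 1905 in the other wild-type libraries. *Slc13a4* had 100 in wild type 3 against 28.5 to 33.8. Wild type 3 also had the highest sum of choroid plexus markers in its group, 18244 scaled counts against 3198 to 6588, and the part of other cells in these values was not tested.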

How the results depend on the processing

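Over all alternatives, 633 of the recomputed log2 fold changes of named members kept their direction and side of the adjusted p limit. Another 7 kept direction but no longer passed it, 5 newly passed it and 16 changed sign. These numbers do not follow the further limit of 1 on the log2 scale. *Slco4a1* (-1.03) came inside that limit without mutant 1 (-0.82), mutant 4 (-0.98) or wild type 3 (-0.89). The counts of members called stayed within 1.5 times the main counts (20 higher, 26 lower, 8 and 16 past both limits) except when edgeR's glmTreat tested for a change above 1, which called 2 higher and 7 lower. Leaving out 1 library at a time gave 17 to 21 higher and 25 to 28 lower, and 8 to 10 and 15 to 20 past both limits. Upper quartile scaling, which moved the median of all genes to -0.09, gave 16 higher and 30 lower, and DESeq2 gave 22 and 27. The sign changes were in members near 0 that did not pass. *Slc27a4* went to 0.00 with DESeq2 and with median-of-ratios scaling, to -0.07 to 0.06 without single libraries and to 0.04 without both libraries numbered 3. *Slc33a1* went to -0.06 with upper quartile scaling, to -0.04 to 0.05 without single libraries and to -0.03 without both libraries numbered 3. Without single libraries, *Slc44a1* ranged from -0.09 to 0.03 and *Slc46a1* from -0.05 to 0.59. The 7 lost calls were all of *Slc35a2*, for example with upper quartile scaling (log2 fold change 0.18, adjusted p = 0.0885) and with no filter on low counts (adjusted p = 0.0791). Libraries with the same replicate number had correlated deviations of 0.201, 0.21, 0.29 and 0.024. Mutant 2 correlated best with wild type 1 (0.253), whose description opens with the same number, and mutant 4 with wild type 3 (0.384), whose does not. The replicate numbers were therefore not taken to pair the pups. The study's methods match wild-type pups to mutants within litters, but no label says that the opening number is a litter, so the main fit held no block. A fit with the replicate number as a block gave 22 higher and 30 lower, 8 and 18 past both limits, with *Slc13a4* (-0.95) and *Slc2a3* (-0.32) newly passing, and a block on the number at the start of the sample descriptions gave 24 and 31 and added *Slc35a4*. The cause of these changes was not tested.

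Limits apply to scarce members. Of the 99 members 3 could not be tested, and members with few counts can differ by large factors without passing. Genes that overlap on opposite strands cannot be told apart where counting did not use strand.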
